A study of Schizosaccharomyces pombe with 4 samples.

Results

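The junctions described here were unannotated and alternative splice junctions of the fission yeast Schizosaccharomyces pombe, read from gaps in long nascent RNA reads. A junction was a gap of 30 to 1500 nt between the aligned blocks of a read on chromosomes I, II and III. It was kept if it was seen in at least 2 reads over all 4 libraries and if no annotated intron on either strand matched it at both ends within 5 nt. This left 114 junctions, with 646 gaps in reads, of 5300 distinct gaps with 26226 in all. Of the others, 4552 distinct gaps matched 4117 annotated introns, and 634 unannotated gaps were seen in 1 read only. By the ends they share with annotated introns, 12 junctions were alternative 5′ sites, 15 were alternative 3′ sites, 14 joined the outer sites of 2 introns (skipped exons), and 73 had neither end known. The junctions were chosen by their read counts, summed over the libraries, so the counts themselves are given as a description.

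Nuclear RNA without poly(A) tails was depleted of ribosomal RNA, ligated to an adaptor at its 3′ ends, copied to cDNA by template switching and read as circular consensus sequences on a Pacific Biosciences instrument. Wild-type cells in exponential growth at 30 °C in complete medium gave replicate 1 (strain L972, h-) and replicate 2 (strain SP286, h+, prp5::KanMx-prp5-WT, a marked wild-type copy of prp5). Strain L972 and the mutant strain prp2-1, with the allele prp2-C387Y and the marker leu1.32, were grown at 26 °C, moved to 37 °C for 2 hours and sequenced as 1 library each. The prp2-1 strain also carried leu1.32, which the label of its wild-type counterpart does not name. The 30 °C replicates thus differed in strain, and the 37 °C groups have no replicate check. Tests below therefore set single libraries against each other and do not compare conditions.

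An intron begins with GT at its 5′ splice site (the donor) and ends with AG at its 3′ splice site (the acceptor), and the spliceosome joins the branch point, a short motif with a central adenosine, to the donor before it joins the exons. In fission yeast introns are short and many genes have several. prp2 encodes the large subunit of U2AF, which binds the pyrimidine tract before the acceptor, and prp2-1 is a temperature-sensitive splicing allele. Alternative splicing joins other sites of the same transcript, and snoRNAs, guides for the modification of ribosomal RNA, are often cut from introns or long precursors.

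The sequences that carry the main findings are shown first. They are from the RefSeq assembly ASM294v3, 5′ to 3′ on the transcribed strand, in lower case. Capitals mark the first 6 bases of an intron on the donor side and the last 3 on the acceptor side. The first set shows 3 loci where no read had the annotated intron and the alternative site had reads.
asn1 junction, acceptor, intron II:735289-735383, plus strand: ttagtaaccataaatttTAGatctatttgt
asn1 annotated, acceptor, intron II:735289-735402: gatctatttgtcaatttTTTtgaaacatta
omh3 junction, donor, intron III:1609450-1609641, plus strand: taactagaagGTAAGAgagaaaaa
omh3 annotated, donor, intron III:1609508-1609641: tgcataaccaGTTAAAaaacaatc
gpi18 junction, donor, intron I:309720-309758, minus strand: tattgaacatGTATGTttgtatat
gpi18 annotated, donor, intron I:309720-309750: atgtatgtttGTATATaagacctg
The annotated asn1 intron ended with TTT, and the junction used in the reads ended 19 nt upstream with TAG.

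The next sequence shows the site inside the snoR61 intron where one intron ends and another begins with no exon base between them, at II:3874612-3874641 on the minus strand. Capitals mark the last 3 bases of the upstream gap, TAG, and the first 6 of the downstream gap, GTATGT. The branch-like motif ctaac stands before them.
snoR61, abutting site: attactaacttctTAGGTATGTttattgag

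The next set shows donors and acceptors of junctions in 5′ UTRs that match no annotated site.
kgd1, II:1879223-1880115, plus strand, donor: ctatgcacagGTATGTattttgac
kgd1, acceptor: ttattaaccgtttccttTAGcccataagct
acs1, III:1710555-1710764, minus strand, donor: tgtatttttcGTAAGTtgcttatc
acs1, acceptor: taatgtctgctaatgttTAGattattacct
fps1, I:1339701-1339868, minus strand, donor: gttcttcgttGTAAGTgataaatt
fps1, acceptor: aaccctaaccaaattctTAGatgtctgcag
The fps1 gap ended directly before the annotated start codon, the atg after TAG.

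The libraries held 8647 and 3544 spliced reads at 30 °C (replicates 1 and 2), 3851 in the wild type at 37 °C and 2083 in the mutant, of 123756, 45318, 32176 and 33746 deposited reads. A spliced read had at least 1 annotated intron or 1 of the 114 junctions as a gap. The 37 °C libraries shared their 6 sequencing cells, while the 30 °C replicates were read on 6 and 3 other cells, so library and cell cannot be told apart there. Of the reads with a junction, 12 in the 37 °C wild type and 15 of the mutant had a name that occurred more than once over the files, against 0 in each 30 °C library.

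Reads with an unannotated or alternative junction were a small share of spliced reads in every library. They were 227 reads or 2.63% in replicate 1 at 30 °C, with a 95% Wilson interval of 2.31 to 2.98%. In replicate 2 they were 177 reads or 4.99% (4.32 to 5.76%), and the mean of both was 3.81% ± 1.68 (SD, n = 2). The 37 °C wild type had 133 reads or 3.45% (2.92 to 4.08%), and prp2-1 had 80 reads or 3.84% (3.10 to 4.75%). Both 37 °C libraries lay between the 30 °C replicates. The intervals cover counting error only: PCR copies could not be recognised.

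**Figure D1:**
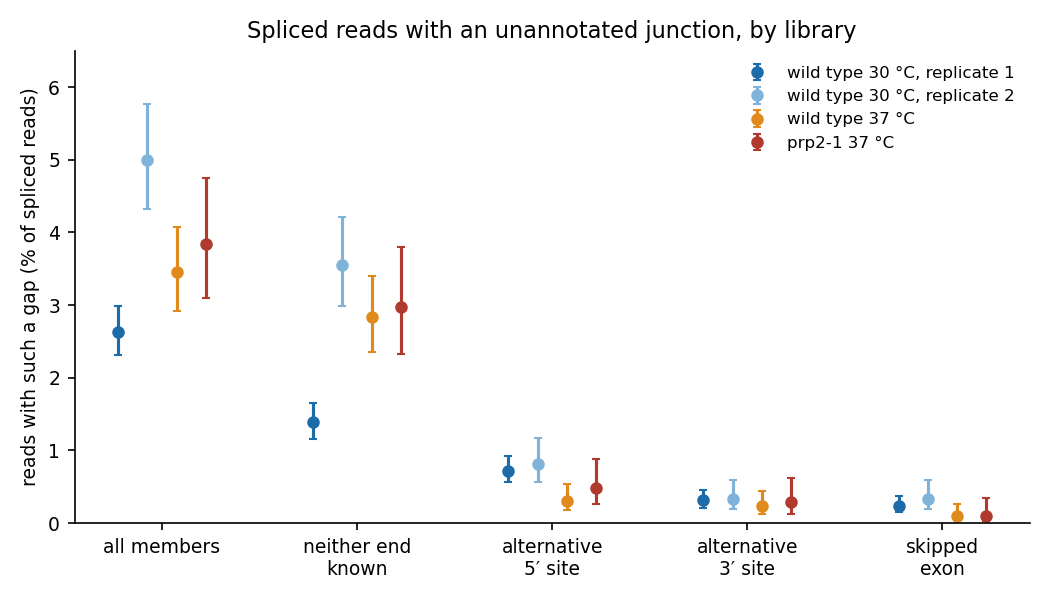
Share of spliced reads (%, vertical axis) with a junction of each class in the 4 libraries; points are shares and bars 95% Wilson intervals. For all junctions together replicate 1 at 30 °C is lowest at 2.63% and replicate 2 highest at 4.99%, and the class with neither end known makes most of every share.

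The share in prp2-1 was not shown to differ from that of the wild type at 37 °C. The difference was 0.387 percentage points, with a 95% Newcombe interval from -0.584 to 1.44 (Fisher's exact test, two-sided, Benjamini-Hochberg adjusted over 3 comparisons, p = 0.465). Within the 6 shared cells, prp2-1 was higher in 3 and lower in the others, with differences from -0.433 to 1.50 points. The 37 °C wild type exceeded replicate 1 by 0.828 points (0.187 to 1.53, adjusted p = 0.0190 in the exact test). That difference came to 0.0959 points without the single gap antisense to 28S rRNA described below, and the share in the 37 °C wild type was below that of replicate 2. The gap between the 30 °C replicates was 2.37 points (1.61 to 3.20, adjusted p = 4.58e-10 in the exact test), larger than either other difference. By cell, replicate 1 ranged from 2.14 to 2.92% and replicate 2 from 4.64 to 5.12%, with no overlap, and the 37 °C wild type ranged from 2.41 to 5.15%.

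Most of the junctions had the ends of a spliceosomal intron. GT and AG bounded 89 of the 114, or 78.1% (69.6 to 84.7%), against 3180 of the 3181 annotated introns seen in at least 2 reads. Just outside the read threshold, the 634 gaps seen once had GT and AG in 57.6%, and just inside it the 47 junctions seen in 2 reads had them in 83.0%. The share did not rise further with reads: it was 71.9% at 3 to 4 reads and 77.1% at 5 or more. A branch motif (CTAAC, with G also allowed at the middle base and T at the last, on the transcribed strand, in the last 40 nt before the acceptor bases) stood in 67.5% of the junctions, 77.3% of the annotated introns seen and 43.4% of the gaps seen once. The junctions were longer than annotated introns, with a median of 110.5 nt against 58 nt. Every junction was carried by at least 2 distinct alignments, where the same alignment in 2 libraries counted as 2.

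**Figure D2:**
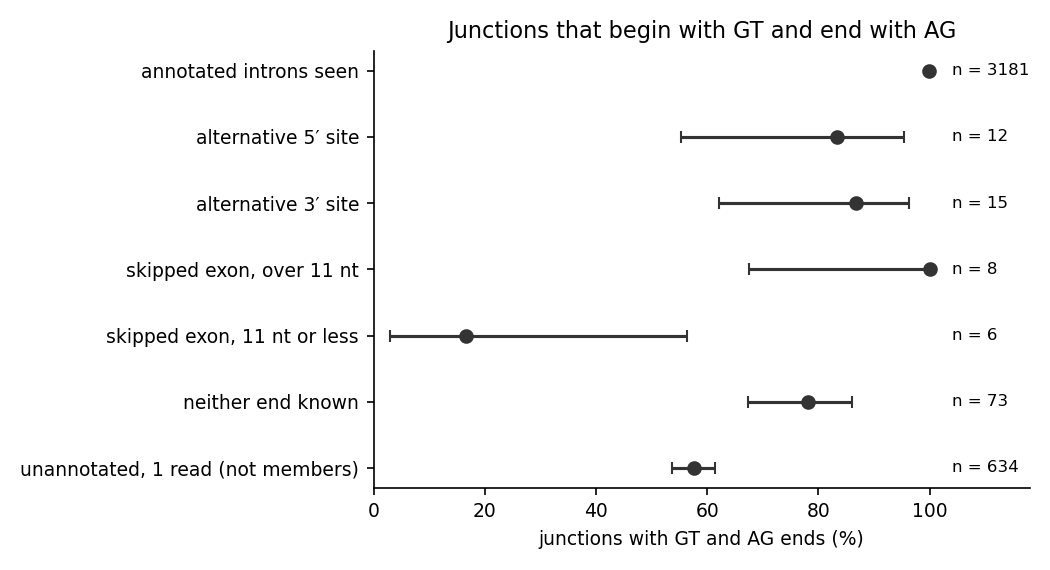
Share of junctions with GT and AG ends (%, horizontal axis) in each set, with 95% Wilson intervals and the number of junctions at the right. The annotated introns seen and skipped exons over 11 nt lie at or close to 100%, while skipped exons of 11 nt or less lie at 16.7%.

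Most junctions were seen in more than 1 library. The rule of at least 2 reads over the libraries favours this, and annotated introns with as few reads were not set beside them. All 4 libraries held 11 of them, 3 held 24, 2 held 55, and 24 were seen in 1 library. Both 30 °C libraries held 46, and 67 were seen at 30 °C and at 37 °C. Ribosomal protein genes, named rpl or rps and heavily expressed, gave 0 of the 646 junction gaps. With every gap taken as independent, the upper limit on their share was 0.464%. The gaps came from 114 junctions, and the snoR61 alternative donor alone gave 68 of them. They were thus not independent, and this limit is too low. Ribosomal protein genes gave 3798 of 24946 annotated gaps, or 15.2%, and 6 of the 634 gaps seen once.

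The alternative 5′ sites were led by snoR61, and the alternative sites of its intron had more reads than those of any other gene. snoR61 (SPNCRNA.445, II:3874254-3874906, minus strand) is the gene of a small nucleolar RNA and has 1 annotated intron of 336 nt, at II:3874462-3874797. Inside it, an alternative acceptor gave a gap of 172 nt at the 5′ end of the intron, at II:3874626-3874797. An alternative donor directly after that acceptor gave a gap of 164 nt, at II:3874462-3874625. Together the gaps covered the whole annotated intron with 0 exon bases between them, so removing both one after the other would leave the same product as removing the intron at once.

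Replicate 1 at 30 °C held 44 reads with the gap of the 3′ part, replicate 2 held 20, the 37 °C wild type 1 and prp2-1 3. The gap of the 5′ part had 8, 5, 0 and 2 reads, and the whole intron was the gap in 133, 46, 6 and 2. Among reads with a gap here, those with the whole intron removed were most frequent in the first 3 libraries. Reads with no gap outnumbered them in every library, with 376, 92, 89 and 114, and in prp2-1 no gap had more than 4 reads within 5 nt of the sites. The donor inside the intron scored 11.6 and its acceptor 7.35, in log2 odds against equal frequencies of all bases, with the annotated introns as the model. The medians of annotated introns in the genome were 8.88 for donors and 6.48 for acceptors.

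The first base of each read was compared with the intron. Of the reads with the 3′ part as their 1 gap at the locus, 39 of 40 in replicate 1 and 19 of 20 in replicate 2 began inside the annotated intron. Their most frequent first base lay 37 nt into it, with 24 and 11 reads. A read can show the gap of the 5′ part or of the whole intron only if it begins upstream of the intron, and such reads began most often 33 nt before it in replicate 1. Reads with no gap mostly began inside the intron too, most often 202 nt into it, with 223 reads in replicate 1, and that is downstream of the internal donor at 172 nt. The 5′ end of a read is where the cDNA ended, and whether it is the 5′ end of the RNA was not tested.

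Only reads that spanned the whole intron could show any of these gaps, whichever was removed. Of 154 such reads in replicate 1, the whole intron was removed in 132, the 5′ part in 7, the 3′ part in 1, the 3′ part with a second gap in 4, and no gap was present in 10. Of 59 in replicate 2 the whole intron was removed in 46, the 5′ part in 5, the 3′ part in 1 and the 3′ part with a second gap in 1. The 37 °C libraries had 8 and 7 such reads. The whole intron was gone in 6 of the 8 in the wild type and in 2 of the 7 in prp2-1, where 2 had lost the 5′ part, 1 the 3′ part and 2 had no gap. Neither part was shown to differ from the whole intron between libraries in any of the 12 tests over the 3 comparisons (Fisher's exact test, two-sided, lowest adjusted p = 0.4), with 0 tests under an unadjusted 0.05 as well. A further junction, of 137 nt at II:3874661-3874797, had 2, 1, 0 and 0 reads, and all 3 of its reads also had the 3′ part removed, leaving an exon of 35 nt between.

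**Figure D3:**
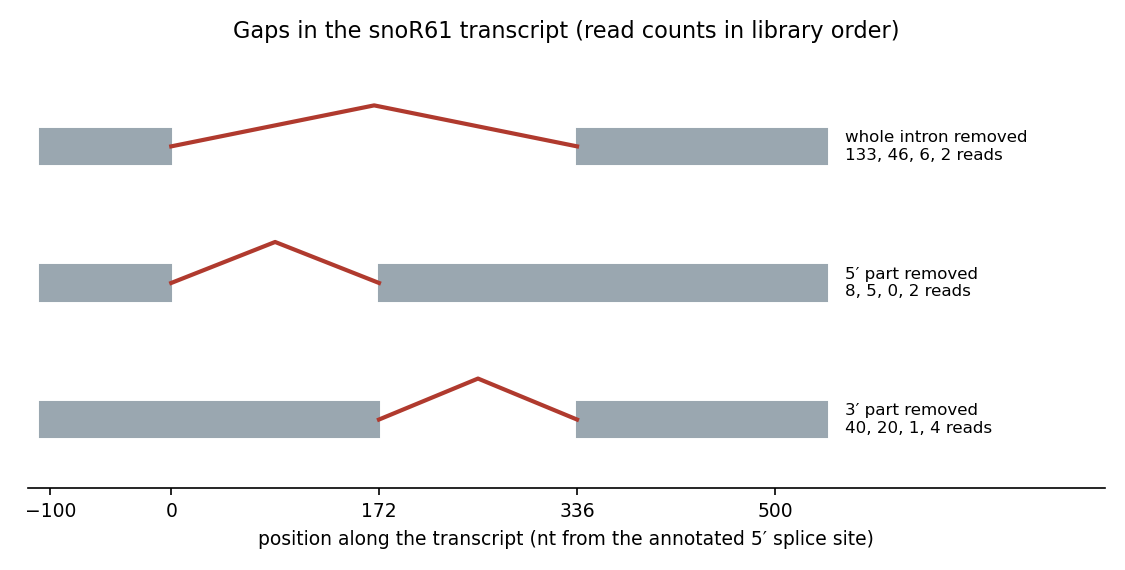
Map of the snoR61 transcript with position in nt from the annotated 5′ splice site; grey bars are sequence kept and red lines are gaps. Read counts at the right are in library order (the 30 °C replicates, the 37 °C wild type, the mutant), for reads with that gap alone; the 2 partial gaps meet at 172 nt.

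At 15 of the 27 alternative sites the annotated intron that shares the other end had no read in any library, and these held 59 reads, with GT and AG in 13 of the 15. In asn1, which encodes asparagine synthetase, the 95-nt gap had 3, 1, 1 and 1 reads in the order of libraries above and the annotated 114-nt intron had 0. Reads crossing it numbered 4, 4, 1 and 2. In omh3, a mannosyltransferase gene, a donor 58 nt upstream of the annotated one had 1, 1, 1 and 0 reads and scored 11.1, where the annotated donor scored -2.55. In gpi18, whose product adds a mannose to GPI anchors, a donor 8 nt upstream had 0, 1, 1 and 0 reads and scored 9.65 against 5.07, and the gap was 39 nt where the annotated intron is 31 nt.

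The alternative site was not the higher-scoring one in most cases. Over the 12 alternative 5′ sites, the alternative donor scored higher than the annotated one in 5 and lower in 7, with medians of 5.77 and 5.17. The 7 included srp2 (-13.9) and cgs2 (-20.2), whose gaps lay close to another alignment of annotated splicing, as described below. Over the 15 alternative 3′ sites, the alternative acceptor scored higher in 4 and lower in 11, with medians of 4.27 and 6.42. sap62, which encodes a U2 snRNP-associated protein, had an acceptor 15 nt upstream with 1, 0, 3 and 1 reads. It scored 0.548 where the annotated acceptor, without reads, scored 4.74.
sap62 junction, acceptor, intron II:3806686-3806733, plus strand: atattaactttgttgcgCAGatgctcacga
sap62 annotated, acceptor, intron II:3806686-3806748: cgcagatgctcacgaaaTAGatcgtgcacc
The distance to the annotated site was a multiple of 3 in 4 of 12 alternative 5′ sites and 3 of 15 alternative 3′ sites.

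brc1, which encodes a BRCT-domain protein, had junctions at both of its introns. A donor 54 nt inside intron 1 had 4, 0, 1 and 0 reads while the annotated intron 1 had 0. An acceptor 25 nt short of the annotated one in intron 2 had 1, 0, 1 and 0 reads, both in reads that also carried the intron 1 junction. The annotated intron 2 had 2, 1, 0 and 1 reads. rec6, a gene of meiotic recombination, used a donor 123 nt inside its first intron in 2, 0, 2 and 0 reads, and its annotated intron 1 had 0 reads.

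ypt1, the gene of a Rab GTPase of the secretory pathway, kept both forms. Its annotated first intron of 168 nt had 2, 1, 2 and 1 reads, and an internal donor 122 nt in had 1, 2, 0 and 2. A further acceptor gave a gap of 56 nt in 1, 1, 0 and 0 reads. In 1 read of replicate 2 both internal gaps occurred, with 63 nt of the annotated intron kept between them as an exon. SPBC577.11 (uncharacterized) had an acceptor 83 nt upstream in 1, 0, 1 and 0 reads against 2, 3, 2 and 1.

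Some alternative sites lay close to another alignment of annotated splicing. Edits were counted between the sequence left by the gap and the sequence left by annotated splicing of the same stretch. srp2, whose product is annotated as a guard protein for pre-mRNA capping, had 6, 1, 4 and 3 reads with a 90-nt gap that began with AT and ended at the annotated acceptor of intron 4. Annotated splicing there, with a 6-nt exon, was 3 edits away. cgs2, a cAMP phosphodiesterase gene, had 2, 1, 0 and 1 reads with a 107-nt gap beginning with AC, 4 edits away. gnd1 (phosphogluconate dehydrogenase) had 2, 0, 1 and 0 reads at 3 edits, cgr1 (ribosome biogenesis) 0, 2, 0 and 0 at 4 edits, and rmt1 (protein arginine methyltransferase) 2, 1, 1 and 0 at 6 edits. In all, 5 alternative-site junctions with 27 reads were within 6 edits of annotated splicing, and 1 of the 5 had GT and AG.

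The skipped exons fell into distinct sets by length. The 8 with more than 11 nt between the outer introns had 74 to 457 nt there and all had GT and AG. Their reads numbered 8 in replicate 1, 5 in replicate 2, 2 in the wild type at 37 °C and 1 in the mutant. The 6 with 11 nt or less had 13, 7, 2 and 1 reads, and 1 of them had GT and AG. The short exons are shown with 9 bases of intron on each side and the exon in capitals.
spd2, exon I:2830799-2830806, plus strand: atcatttagTCGCAAAGgtacgtgaa
ubc1, exon II:3004878-3004881, plus strand: cataattagATTGgtatgttat
sce3, exon II:1776846-1776856, minus strand: taataatagGTCCGAAAAAGgtttgttta
toa2, exon III:281981-281986, plus strand: ctttaacagCATAGGgtaattaaa
rmt1, exon I:5017700-5017703, minus strand: taaacatagGATTgtaagtttt
spx2, exon III:2390759-2390763, minus strand: ataaaacagACGAGgtacgtttt

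For these short exons a read that kept the exon and a read that skipped it differed by few bases. The gap of spd2, which encodes a ribonucleotide reductase inhibitor, ended before the annotated acceptor, and annotated splicing was 6 edits from it for an exon of 8 nt. The number of edits was 2 for ubc1, 8 for sce3, 3 for toa2, 2 for rmt1 and 2 for spx2, each below the length of the exon of 4, 11, 6, 4 and 5 nt. spd2 had 4, 3, 1 and 0 reads of this gap, and ubc1, a ubiquitin-conjugating enzyme gene, had 1, 4, 0 and 0. sce3, a translation initiation factor gene, had 2, 0, 0 and 1 reads and toa2, the small TFIIA subunit gene, had 3, 0, 0 and 0. No read had both flanking introns as annotated gaps at any of these 4 genes. The deposited lines hold no bases, so whether the exon was present in a read was not tested.

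The longer skipped exons were outnumbered by exon inclusion at chc1, ubc4, ilv6 and rpb9. chc1, the clathrin heavy chain gene, skipped 74 nt in 1, 1, 0 and 0 reads, where 11, 10, 11 and 10 reads had both introns spliced as annotated. ubc4, a ubiquitin-conjugating enzyme gene, skipped 78 nt in 2, 0, 0 and 0 reads against 15, 8, 1 and 1 with both introns. ilv6, of branched-chain amino acid synthesis, skipped 138 nt in 2, 0, 0 and 0 against 11, 3, 4 and 2. rpb9, an RNA polymerase II subunit gene, skipped 133 nt in 1, 1, 0 and 0 against 5, 0, 1 and 0. The other longer exons had few reads of either form. idi1, of isoprenoid synthesis, skipped 339 nt in 1, 0, 0 and 1 reads against 2, 1, 0 and 0, and SPCC1672.09, annotated as a lipase, skipped 457 nt in 1, 1, 0 and 0 against 0, 2, 2 and 0. twf1, the twinfilin gene, skipped 368 nt in 0, 2, 0 and 0 against 0, 0, 0 and 1. In toa2, 2 reads of the 37 °C wild type joined intron 1 to intron 3 across 157 nt, which included intron 2, and 0 reads had both outer introns spliced as annotated. Of all reads crossing these 8 gaps, 7.88% (16 of 203) had the skip.

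**Figure D4:**
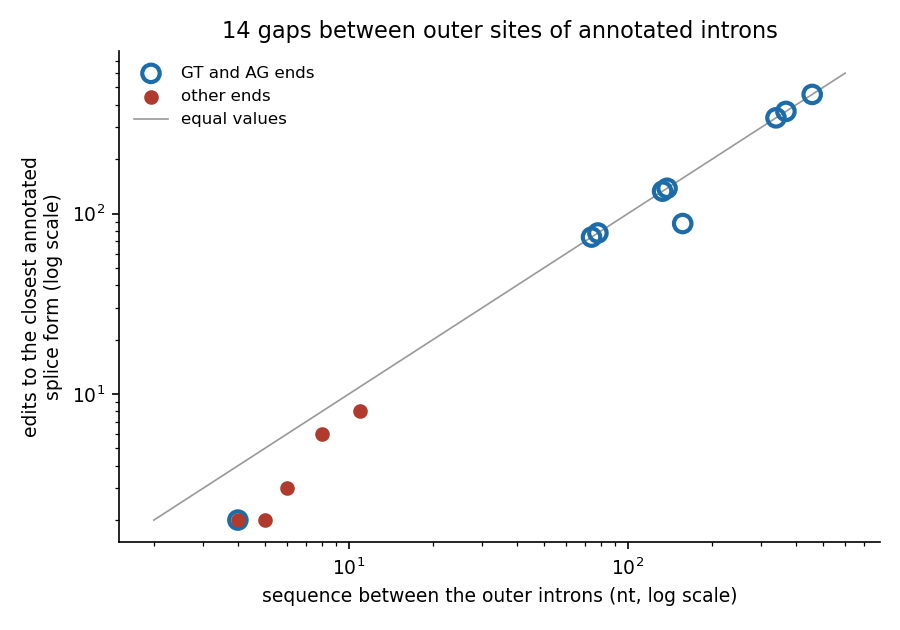
Each point is 1 of the 14 skipped-exon gaps, with the sequence between the outer introns (nt, log scale) against the edits to the closest annotated splice form (log scale). Open blue circles have GT and AG ends and filled red points do not; the 6 short ones lie at 2 to 8 edits, below the line of equal values, and 1 open circle at 4 nt (rmt1) surrounds a red point (ubc1).

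The class with neither end known held 440 of the 646 gaps. They were in 120 and 126 reads at 30 °C, 109 of the 37 °C wild type and 62 of the mutant. Of the 73, 49 lay inside a gene, 8 crossed a gene end, 12 lay antisense to a gene only and 4 were intergenic. GT and AG bounded 57 of them. Inside protein-coding genes, 20 were in 5′ UTRs, 18 in coding sequence, 2 in 3′ UTRs and 1 crossed an end of the coding sequence.

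The 5′ UTR gaps were in 14 genes, of which 8 have no annotated intron at all. They had 30, 50, 37 and 19 reads in the order of libraries above, and 17 of the 20 had GT and AG. kgd1, which encodes alpha-ketoglutarate dehydrogenase of the citric acid cycle, had a gap of 893 nt with 4, 21, 8 and 5 reads. Replicate 2 had more reads of it than the other 3 libraries together. A second gap of 894 nt from the same donor, with 1, 4, 2 and 0 reads, ended 1 base later. Within 5 nt, the gap was present in 5 of 5 and 25 of 25 crossing reads at 30 °C, in 10 of 12 in the 37 °C wild type and in 5 of 7 in the mutant.

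acs1, which encodes acetyl-CoA ligase, had a gap of 210 nt in 6, 2, 7 and 1 reads, of 8, 5, 7 and 3 that crossed it. fps1, of isoprenoid synthesis, had 6, 1, 1 and 3 reads of a 168-nt gap, of 8, 2, 1 and 3 crossing, and 0 nt lay between the gap and the start codon. med15, a Mediator subunit gene, had a 44-nt gap ending 17 nt before the start codon, with 2, 5, 2 and 4 reads of 8, 10, 5 and 6 crossing. ade7, csr102 and ssn6 each had 2 gaps that shared an end: ade7 had 1 donor with acceptors 8 nt apart (192 and 200 nt), ssn6 1 donor with gaps of 219 and 321 nt, and csr102 1 acceptor with gaps of 92 and 63 nt.

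Of the reads that crossed any of the 17 with GT and AG, each counted once, 43.7% (31 of 71) and 57.5% (50 of 87) had such a gap at 30 °C, against 54.4% (37 of 68) in the 37 °C wild type and 40% (18 of 45) in the mutant. The 95% intervals of the 4 libraries overlapped. A gap had to be read at least 2 times to be counted, so these shares were raised by the choice. The 20 gaps ended 0 to 911 nt before the start codon, with a median of 180.5 nt.

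Gaps in coding sequence were of another kind. Of the 18, 8 had GT and AG and 14 had a length that is a multiple of 3. Repeats made up 8 of the others: these could be placed at 12 or more positions with the same result, all 8 had lengths that are multiples of 3, and 0 had GT and AG. They lay in 4 genes, SPBPJ4664.02 (a glycoprotein), ubi4 (polyubiquitin), med15 and gsf2. A gap in pfl4 fell below the cut of 12 positions and is not among these 8. It had GT and AG, but it too lay in a repeat, since the bases that begin it also directly follow it. All 8 gaps together were in 4, 11, 2 and 3 reads in the order of libraries above. The ubi4 gap was 228 nt and could be placed in 71 ways, with 2, 3, 0 and 0 reads. The med15 gap of 54 nt lay in a run of CAA triplets and had 3 reads, all in replicate 2.
med15 repeat gap, II:997684-997737, plus strand, donor side: acaacaacaaCAACAAcaacaaca
In paa1 and cog2, with 3 reads each, the gap left the same sequence as the annotated intron, so these were the annotated intron placed elsewhere. In the 8 with GT and AG, 9 of 35 and 8 of 26 crossing reads had the gap at 30 °C, 3 of 33 in the 37 °C wild type and 1 of 39 in the mutant. These gaps too were chosen by having at least 2 reads, which came mostly from the 30 °C libraries. The choice thus raised the shares at 30 °C most, and the difference from 37 °C was not tested.

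Junctions in snoRNA host transcripts formed a further group. A whole annotated snoRNA lay inside 6 gaps, all with GT and AG, and 17 and 14 reads had at least 1 of them at 30 °C, against 0 in the 37 °C wild type and 1 in the mutant. SPNCRNA.723, a snoRNA primary transcript, had a 193-nt gap around snR41 with 6, 8, 0 and 0 reads and a 208-nt gap around snR70 with 8, 6, 0 and 1. Both gaps were in the same read in 4 reads of replicate 1 and 5 of replicate 2, with 51 nt kept between them. snoZ, the precursor of a snoRNA cluster, had gaps around snoZ8 (6, 3, 0 and 0 reads), snoZ7 (4, 0, 0 and 0) and snoZ5 (4, 0, 0 and 0). In replicate 1, 3 reads joined the exons around snoZ7 and snoZ5 in one molecule. snoR56 lay in a gap of 213 nt with 2 reads in replicate 2. All of these gaps but the one around snR70 had reads at 30 °C only, and so passed the 2-read rule through those libraries. The counts by library, and the shares of crossing reads that follow, were thus partly set by the choice of junctions.
Of the reads crossing any of these 6 gaps, each counted once, 17 of 33 had a gap in replicate 1 and 14 of 24 in replicate 2, while 4 and 8 reads crossed them in the 37 °C libraries. The donor and acceptor of the snR70 gap and of the snoZ8 gap are shown.
SPNCRNA.723, I:1200363-1200570, plus strand, donor: ttcccataagGTAAGTtaaaaatt
SPNCRNA.723, acceptor: agtattaactaagatttTAGattttacata
snoZ, I:526693-526854, plus strand, donor: ttaataaatgGTATGTgtctataa
snoZ, acceptor: cttatgctaacataattTAGttatgataca

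mamRNA, a non-coding RNA that binds the meiotic regulators Mmi1 and Mei2, had a gap of 227 nt at II:1308191-1308417 on the plus strand, which crossed an annotated gene end upstream of the snoRNA gene snoU14 at II:1308634-1308745. It had GT and AG and 9, 6, 2 and 11 reads, the most of any junction in prp2-1. Reads crossing it numbered 17, 17, 7 and 199, so the share with the gap in prp2-1 was the lowest of the 4 libraries.

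Gaps that lay antisense to a gene only were in 18, 20, 39 and 16 reads. One of them, at III:950489-950687 on the minus strand, had GT and AG and 6, 13, 0 and 2 reads. It lay antisense to SPNCRNA.477 and 38 nt past the end of trm8, on the strand of trm8. In 19 of its 21 reads the aligned block on 1 side of the gap was shorter than 20 nt, since 2 reads were left when at least 20 nt were asked for on each side. Another, at III:8912-9109, antisense to the 28S rRNA gene SPRRNA.47, had 0, 0, 29 and 7 reads, began with GC and ended with TG. Its 36 reads were 6 distinct alignments, counted library by library, and it was seen in both 37 °C libraries and in neither at 30 °C. Together with a second gap antisense to an rRNA gene it gave 39 reads.

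eno101, which encodes enolase, had a gap of 525 nt at II:2202650-2203174 with 6, 3, 3 and 6 reads that began 3 nt before the annotated end of the gene. It began with TA and ended with AG, and the sequence after it was rich in A. No read had more than 18 aligned nt on the shorter side of it.
eno101, plus strand, acceptor side: ataggctttatgcatttAAGtaaaaaaaaa

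**Figure D5:**
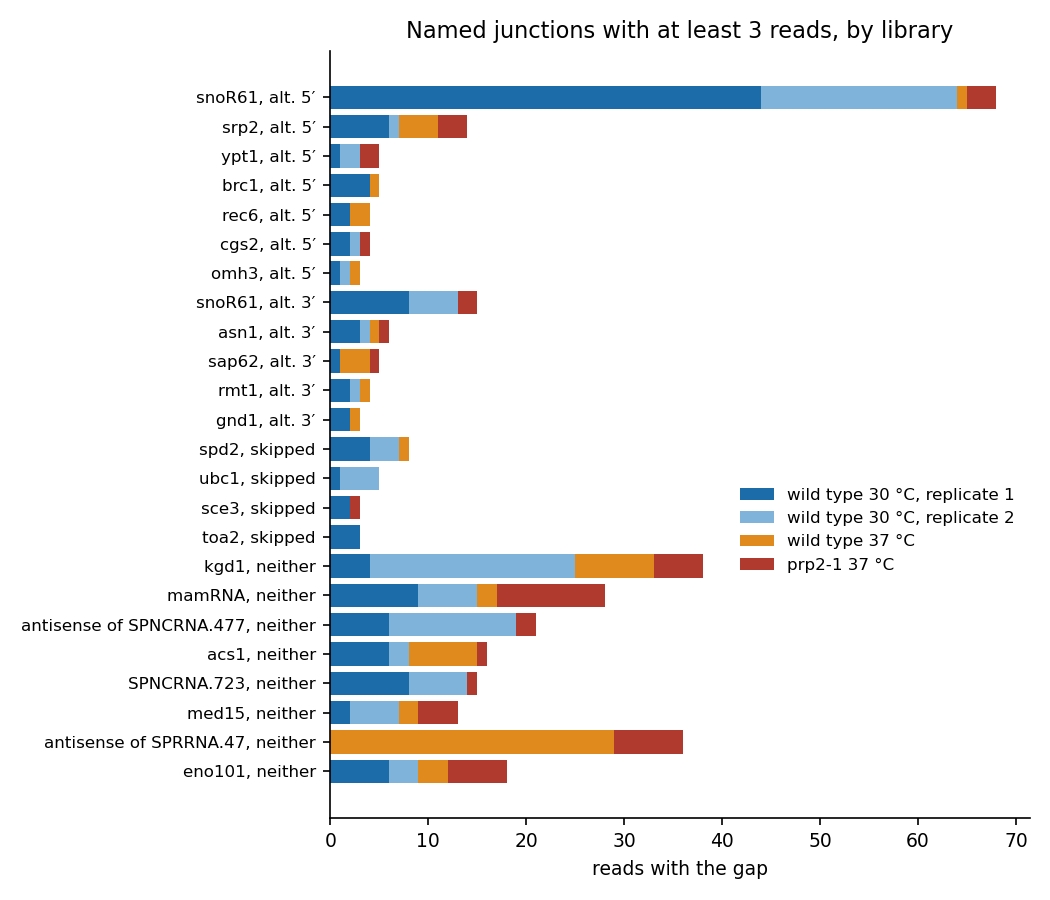
Reads with each named junction that had at least 3 reads (horizontal axis, number of reads), stacked by library; the label gives the gene and the class, with neither standing for neither end known. The snoR61 alternative donor leads with 68 reads, the gap antisense to SPRRNA.47 is seen at 37 °C only, and kgd1 has most of its 38 reads in replicate 2 at 30 °C.

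The choice between an alternative and an annotated site was compared within loci, so that a general loss of splicing would not enter. Where reads began could still enter. At snoR61, 39 of 40 reads with only the 3′ part removed in replicate 1, and 19 of 20 in replicate 2, began inside the intron. Such reads could not show the annotated intron. The alternative 5′ ratios, and the tests of that snoR61 junction, thus do not measure choice alone. For alternative 5′ sites the Mantel-Haenszel odds ratio of prp2-1 against the 37 °C wild type was 13.8, with a 95% interval from 1.01 to 188 over 2 informative loci. The interval included 1 with identical alignments counted once (11.9, from 0.878 to 161) and with reads across both forms only (7, from 0.477 to 103). The ratio could not be computed without snoR61, with repeated read names left out, or with at least 20 aligned nt asked for on each side. The 37 °C wild type against replicate 1 gave 0.666 (0.124 to 3.58), and replicate 2 against replicate 1 gave 1.45 (0.791 to 2.64).

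For alternative 3′ sites the ratios were 1.81 (0.333 to 9.82) for prp2-1 against the 37 °C wild type, 0.744 (0.155 to 3.56) for the 37 °C wild type against replicate 1, and 1.58 (0.662 to 3.75) between the replicates. Skipped exons gave a ratio between the replicates only, 0.542 (0.106 to 2.76). The alternative 3′ and skipped-exon intervals all included 1, and a difference within them was not detectable at this depth.

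No single junction was called in any comparison. Among those with at least 10 reads of either form in both libraries, 0 of 2 were called for prp2-1 against the 37 °C wild type (0% called), 0 of 2 for the 37 °C wild type against replicate 1 (0% called) and 0 of 5 between the replicates (0% called), by Fisher's exact test with Benjamini-Hochberg adjustment, and 0 had an unadjusted p under 0.05. Use among all crossing reads was tested over annotated and unannotated junctions together. For prp2-1 against the 37 °C wild type 0 of 5 unannotated junctions were called, where 12.3% of all 73 tested were, 9 junctions, all lower in prp2-1. Those 9 calls fell to 0 of 51 with repeated read names left out and to 1 of 133 with any unannotated gap. For the 37 °C wild type against replicate 1 it was 0 of 4, with 4.12% of 97 called, and between the replicates 0 of 10, with 31.9% of 119 called. At an unadjusted p under 0.05 the numbers over all junctions were 16, 19 and 47. With so few unannotated junctions at this depth, their share of calls was not distinguishable from the background.

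The median difference in use between prp2-1 and the 37 °C wild type was -16.2 percentage points over 68 annotated introns and 0 over the 5 unannotated junctions. Between replicate 2 and replicate 1 it was -23.5 points over 109 annotated introns and -0.0833 over 10. The 5 tested at 37 °C were in chc1, mfs1, gnd1, ubi4 and sce3. None had more than 1 read with the gap in either library, so a fall in their use could hardly be seen. The difference between these medians was not tested.

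The state of the other introns in the same reads was also scored. Of the other introns that reads with a junction crossed, 92.3 and 84.8% were spliced at 30 °C, 79.5% in the 37 °C wild type and 61.0% in the mutant. In reads with an annotated gap, leaving that gap out, 82.2, 77.0, 73.3 and 49.4% were spliced. Each was lower than in the reads with a junction, a difference that was not tested, and both sets were lowest in prp2-1.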

How the data were processed

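The deposited files held 1 line per aligned circular consensus read, with positions and aligned blocks and no normalisation. The score column as deposited was 40 in every line and was not used as a measure. Reads were trimmed with cutadapt 1.8, per the submitters' processing notes, and had reads with poly(A) filtered out, per the names the authors gave the files. The aligner and the genome build are not given in the sources used here. Gaps were matched to the introns of the RefSeq annotation of ASM294v3 on the strand of the read first and then on the other strand, within 5 nt at each end. Lines repeated within or between files were kept, with alternatives that leave them out.

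The junctions, gene groups and tests were chosen with earlier results of these data known. Named junctions had the most reads in their class, 1 per gene: up to 8 alternative 5′ sites, 8 alternative 3′ sites, 6 skipped exons, 6 with neither end known and GT and AG, and the 3 with the most reads without GT and AG. One junction that this rule names is not reported here. Other genes are named because they make up a small group or lead one, after their values were seen.

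Shares have 95% Wilson intervals and differences Newcombe intervals. A count of 0 was given an upper limit of 3 counts over the total. Fisher's exact tests were two-sided with Benjamini-Hochberg adjustment and a threshold of 0.05, on junctions with at least 10 reads in both libraries. A read crossed a junction if it reached 10 nt past both ends. Common odds ratios were Mantel-Haenszel estimates with Robins-Breslow-Greenland intervals. Donor scores were computed over 9 nt (3 of exon) and acceptor scores over 10 nt. Edits were counted with edlib 1.3.9.post1, over the gap's surroundings of 30 nt. Python 3.11.15, numpy 2.4.6, scipy 1.17.1 and matplotlib 3.10.9 were used. Classing and tests were tested on simulated data. Where the labels do not say that libraries of 1 group came from separate cultures, their spread may be technical.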

Additional observations from a re-analysis of the deposited data

How the results depend on the processing

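Each result was recomputed with exact matching or 10 nt in place of 5 nt, at least 3 reads or any gap, identical alignments once, repeated names out, 20 aligned nt on each side, GT and AG ends only, neighbouring gaps merged, 5 reads in place of 10 and either 30 °C library left out. Leaving out the snoR61 intron, leaving out the gap antisense to 28S rRNA, and using reads across both forms only were chosen after seeing the data. The higher junction share in the 37 °C wild type than in replicate 1 did not pass with exact matching (0.546 points), identical alignments once (0.394), GT and AG only (0.0691) or without the rRNA gap (0.0959), and it was 0.789 with replicate 2 left out but -1.47 against replicate 2, with replicate 1 left out. Any unannotated gap turned prp2-1 minus wild type to -0.0223. The alternative 5′ odds ratio of prp2-1 against the wild type did not pass with any gap (2.47), identical alignments once (11.9), merged gaps (6.13) or reads across both forms (7), and could not be computed without snoR61, without repeated names or with 20 nt on each side. The skipped-exon ratio between the replicates could not be computed at 3 reads. Ratios not called that crossed 1 were those of the 37 °C wild type against replicate 1, at 1.29 for alternative 3′ sites with 20 nt on each side, and for alternative 5′ sites 1.25 without snoR61 and 2.33 with reads across both forms. For prp2-1 against the wild type the alternative 3′ ratio was 0.646 without snoR61. Junctions called by use in that comparison numbered 1 with any gap, 0 without repeated names and 5 at 5 reads, against 9. In the 37 °C wild type against replicate 1 they numbered 2 with 20 nt on each side and 2 with replicate 2 in place of replicate 1, against 4. Of the shares, ratios and counts of calls compared between libraries, the other 187 recomputed values kept their direction and side of the threshold, or their count within 1.5 times. Of the numbers of junctions, the GT and AG share and the reads of named junctions, 39 recomputed values moved by over 1.5 times, or for the share past its 95% interval, and 406 did not. The number of junctions was 67 at 3 reads, 165 with exact matching and 748 with any gap. No paired analysis was possible because only the 30 °C group has numbered replicates, and the 37 °C libraries were compared within their shared sequencing cells instead. The low number of reads at most junctions limits every comparison, and 47 of the 114 had 2 reads in all. The cause of these changes was not tested.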
